A study of Mus musculus with 2 samples.

Results

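The genes described here encode the interstitial matrix of the lung: fibrillar collagens, the collagens and proteoglycans attached to them, adhesive glycoproteins, elastic fibers and the enzymes that finish and cross-link the fibers. They are a list of 37 genes, found by symbol with no threshold on their values but drawn up with earlier results of these data known, out of 27998 genes in the files. All 37 had at least 1 UMI (unique molecular identifier, the tag that marks 1 captured RNA molecule) in control stromal, control epithelial and IL-1β epithelial cells, and 36 did in IL-1β stromal cells. The list holds 5 fibrillar collagen chains, 7 other collagen chains, 5 small leucine-rich proteoglycans, 7 adhesive and matricellular proteins and hyalectan, 9 genes of elastic fibers and microfibrils, and 4 genes of collagen and elastin processing.

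Fibrillar collagens are secreted as procollagens, trimmed outside the cell, packed into fibrils and cross-linked by lysyl oxidases, which also cross-link elastin. Small leucine-rich proteoglycans such as decorin bind the fibrils and set their width and spacing, while fibronectin and the matricellular proteins tie the network to cell receptors. In the lung these proteins come mainly from fibroblasts and myofibroblasts of the alveolar wall, and elastin is known for the recoil of the tissue.

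The cells came from organoids kept, by the labels, for 2 weeks (the study's text also gives a longer time), in which alveolar type 2 (AT2) cells of Sftpc-CreERT2;R26RTomato C57BL/6 mice given tamoxifen grew with lung stromal cells. The Sftpc promoter drives the inducible Cre, so that the Tomato label marks AT2 cells and their descendants and not the stromal cells. The control organoids received PBS and the others IL-1β, an inflammatory cytokine, and each condition is 1 library of single cells read at the 3′ end of the RNA. With 1 library per condition no difference between them can be tested: ratios are given with exact conditional 95% intervals that cover counting error only, and the spread between cultures is unknown.

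The control library held 2101 barcodes and 33965848 UMIs, and the IL-1β library 3066 barcodes and 41220175 UMIs. After the cell filters 2081 and 3058 cells were used, and 11 barcodes occurred in both libraries. Clusters were called stromal or epithelial from markers, which gave 797 stromal and 1284 epithelial cells in control and 475 and 2583 in IL-1β organoids, with median UMIs per cell of 15735, 13922, 14849 and 11293. The 10 stromal markers summed to 1112 and 677 CPM (UMIs per 1000000 UMIs of the cells summed) in control and IL-1β stromal cells, and 8 of the 9 tested were at least 10-fold higher in stromal than in epithelial cells of each library, with the lung fibroblast factor Tcf21 at 0 in all 4. Because clusters were called from these same markers, their levels describe the classes and do not test them. Among IL-1β stromal cells a sub-cluster of 217 cells, 45.7% of the class, had the highest mitochondrial share. It was 13.5% of UMIs against 2.68% to 10.4% in the other IL-1β stromal sub-clusters. The median UMIs per cell were also lowest there, at 8387. A sub-cluster of 148 cells, with a median of 29935, held 4690093 of the 9456134 UMIs of IL-1β stromal cells. Because 3′ UMI counts are not divided by gene length, levels are compared here between cells and libraries and not between genes.

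**Figure D1:**
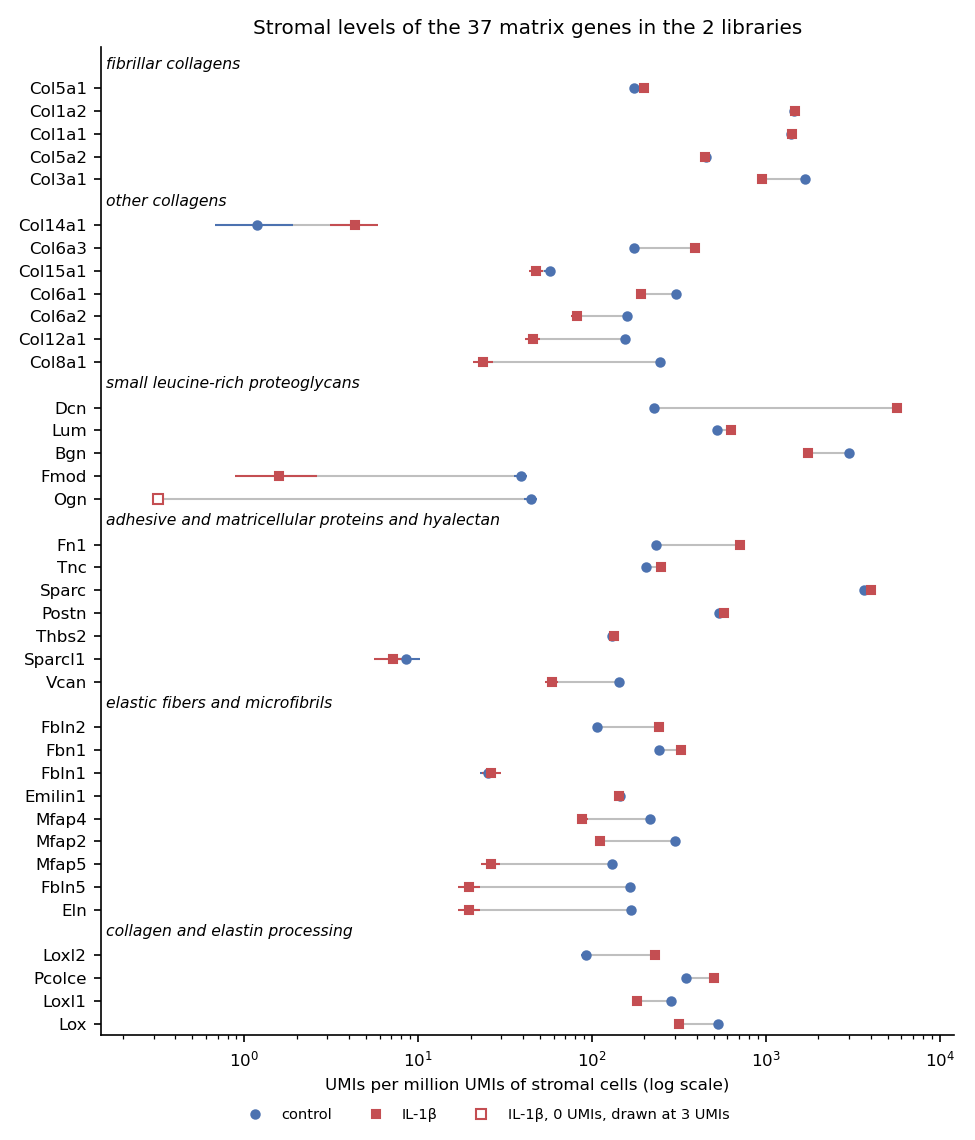
Level in CPM over all stromal cells (log axis) for each of the 37 genes, grouped by role, in control (circles) and IL-1β organoids (squares). Bars are exact 95% Poisson intervals of the counts, and the open square marks Ogn, which had 0 UMIs in IL-1β stromal cells and is drawn at 3 UMIs; Dcn moves to the right from 226 to 5668 CPM and Eln to the left from 168 to 19.6.

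Most of the genes belonged to the stromal cells in both libraries. In control organoids 32 of 37 were at least 10-fold higher in stromal than in epithelial cells, by CPM, where 9.69% of all genes tested passed that limit. In IL-1β organoids 29 of the 36 tested were, against 7.49% of all genes. The genes under 10-fold in both libraries were Col6a1, Col6a2, Sparc and Fbln5, and their epithelial levels are described after the stromal comparison. Together the 37 genes took 1.77% of stromal UMIs in control and 2.13% in IL-1β organoids, but without Dcn the shares were 1.75% and 1.56%.

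The stromal comparison asks how the matrix genes of the supporting cells stood when the organoids grew with IL-1β. Of the 37 genes, 6 were at least 2-fold higher in IL-1β than in control stromal cells and 10 at least 2-fold lower, while 21 lay between. Among all 12843 genes with at least 20 UMIs over both libraries, 5.28% were 2-fold higher and 13.4% 2-fold lower. The higher genes were Dcn, Col14a1, Fn1, Loxl2, Fbln2 and Col6a3, and the lower genes Ogn, Fmod, Col8a1, Eln, Fbln5, Mfap5, Col12a1, Mfap2, Mfap4 and Vcan. The median ratio was 0.981 over the 37 genes and 0.796 over all genes tested, so that a gene at parity stood above the middle of the transcriptome. The order of these medians changed when the sub-cluster of 217 IL-1β cells was left out, as given below. Scaled by the median ratio of all genes in place of total UMIs, 6 genes were higher and 8 lower, with Vcan and Mfap4 no longer past 2-fold.

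The fibrillar collagens stayed within 2-fold, with 0 of 5 past it in either direction, where 5.28% of all genes tested were higher and 13.4% lower. Col1a1 (chr11:94936224-94953042 of GRCm38), the first chain of type I collagen, stood at 1397 CPM in control and 1404 CPM in IL-1β stromal cells, a ratio of 1.01 (95% interval 0.983 to 1.03). Its partner chain Col1a2 stood at 1443 and 1474 CPM, a ratio of 1.02 (1.00 to 1.04). Both chains of type I collagen were therefore level in total UMIs, whereas under median-of-ratios scaling their log2 ratios were 0.34 and 0.36.

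Col3a1 (chr1:45311538-45349706), which forms type III collagen of thin reticular fibrils, was the exception among the fibrillar collagens. It stood at 1671 CPM in control and 950 CPM in IL-1β stromal cells, a ratio of 0.569 (0.555 to 0.583). The type V chains, which start fibrils together with type I collagen, had ratios of 1.15 for Col5a1 and 0.981 for Col5a2. Type I and type III collagen thus differed in their ratio by more than counting error.

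Among the other collagens 2 of 7 were 2-fold higher and 2 lower, where 5.28% and 13.4% of all genes tested were. Type VI collagen forms beaded filaments around cells and is built from 3 chains, and its chains did not move together. Col6a3 went from 175 to 389 CPM, a ratio of 2.22 (2.11 to 2.34), whereas Col6a1 went from 304 to 190 CPM (ratio 0.625, 0.591 to 0.661) and Col6a2 from 160 to 81.4 CPM (ratio 0.510, 0.469 to 0.554). Col6a1 and Col6a2 lie 85162 bases apart on chromosome 10, and Col6a3 lies on chromosome 1.

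Col8a1 (chr16:57624258-57754737), a short-chain network collagen of vessel walls and remodeling tissue, had 3346 UMIs in control and 223 in IL-1β stromal cells. Its level went from 246 to 23.6 CPM, a ratio of 0.0958 (0.0833 to 0.110). Col12a1, which decorates the surface of collagen fibrils, went from 154 to 45.5 CPM, a ratio of 0.296. Col14a1, of the same fibril-associated class, had only 16 and 41 UMIs, and its ratio of 3.68 has an interval of 2.02 to 7.03. Col15a1, a collagen of the zone between basement membrane and interstitium, stood at 57.0 and 47.5 CPM, a ratio of 0.833.

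The small leucine-rich proteoglycans spanned the whole range, with 1 of 5 higher and 2 lower, where 5.28% and 13.4% of all genes tested were. Dcn (chr10:97479609-97518143) encodes decorin, which binds type I collagen fibrils and transforming growth factor β. It went from 3070 UMIs in control to 53593 in IL-1β stromal cells, or from 226 to 5668 CPM, a ratio of 25.1 (24.2 to 26.0), the highest of the 37 genes. Lum, its neighbor on chromosome 10, encodes lumican and stood at 523 and 633 CPM, a ratio of 1.21. Bgn, for biglycan, went from 3002 to 1747 CPM, a ratio of 0.582.

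Ogn (chr13:49608046-49624501), which encodes osteoglycin (mimecan), had 601 UMIs in control stromal cells and 0 in IL-1β stromal cells. Against a floor of 3 UMIs it was at least 139-fold lower. None of the 475 IL-1β stromal cells held an Ogn UMI, which allows a share of up to 0.632% of cells with a UMI, and 25.1% of control stromal cells held one. The limit is on cells with a captured UMI and not on cells that express the gene. Fmod, for fibromodulin, had 527 and 15 UMIs, or 38.8 and 1.59 CPM, a ratio of 0.0409 (0.0227 to 0.0681). In the proteoglycan class the gene for decorin was thus higher and those for osteoglycin and fibromodulin were lower, while lumican and biglycan lay within 2-fold.

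Among adhesive and matricellular proteins 1 of 7 was higher and 1 lower, or 14.3% each. Of all genes tested 5.28% were higher and 13.4% lower, so the lower share was near that of all genes. Fn1 (chr1:71585520-71653200), for fibronectin, went from 232 to 708 CPM, a ratio of 3.06 (2.93 to 3.19). The hyalectan Vcan, which swells with water when bound to hyaluronan, went from 142 to 58.6 CPM, a ratio of 0.413 (0.375 to 0.454). The remaining members stood close to parity over all stromal cells: Sparc (osteonectin, a collagen chaperone) had a ratio of 1.10, Tnc (tenascin C) 1.22, Postn (periostin) 1.07, Thbs2 (thrombospondin 2) 1.02 and Sparcl1 0.842 (0.615 to 1.15). Postn ran from 31.7 to 1136 CPM over the IL-1β sub-clusters of 50 or more cells. It was highest in the sub-cluster of 217 cells, and its ratio without them is not given here.

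Elastic fibers and microfibrils held the most lower genes, 5 of 9, with 1 higher and a median ratio of 0.410. Of all genes tested 13.4% were lower and 5.28% higher. Eln (chr5:134702593-134747323), for the elastin core itself, went from 2287 to 185 UMIs, or from 168 to 19.6 CPM, a ratio of 0.116 (0.0995 to 0.135). Fbln5, which delivers elastin to microfibrils, went from 164 to 19.7 CPM, a ratio of 0.120 (0.103 to 0.139). The microfibril-associated genes were lower too, with Mfap5 at 130 and 26.2 CPM (ratio 0.201, 0.175 to 0.230), Mfap2 at a ratio of 0.371 and Mfap4 at 0.410. Fbn1, the fibrillin backbone of microfibrils, did not share this and stood at 243 and 325 CPM, a ratio of 1.34 (1.27 to 1.41). Emilin1 and Fbln1 were near parity, at 0.988 and 1.05, and Fbln2, which binds fibronectin and basement membrane proteins, went from 107 to 242 CPM, a ratio of 2.26 (2.11 to 2.41).

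Of the 4 processing genes, Loxl2, a lysyl oxidase that acts on type IV collagen among others, went from 91.8 to 231 CPM, a ratio of 2.52 (2.35 to 2.70). Lox and Loxl1, which cross-link collagen and elastin, were lower without passing 2-fold, with ratios of 0.592 and 0.637. Pcolce, which speeds the trimming of procollagen, stood at 345 and 505 CPM, a ratio of 1.47 (1.41 to 1.53).

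For 6 matched members among those named for the highest and lowest stromal ratios, the 150 bases before the transcription start are shown, read from the RefSeq table of promoters for GRCm38.p6, which matched 23 of the 37 genes. Ogn, Fmod, Col8a1 and Fbln5 were lower and Col6a3 and Fbln2 higher, and they are shown so that genes with ratios of the same direction can be compared.
Ogn (chr13:49607865-49608014, plus strand): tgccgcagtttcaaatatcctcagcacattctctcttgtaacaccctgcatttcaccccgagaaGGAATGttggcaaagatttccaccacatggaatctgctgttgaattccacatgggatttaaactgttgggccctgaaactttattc
Fmod (chr1:134037104-134037253, plus strand): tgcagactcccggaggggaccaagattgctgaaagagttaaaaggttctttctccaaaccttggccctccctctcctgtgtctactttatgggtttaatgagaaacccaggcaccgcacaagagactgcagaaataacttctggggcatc
Col8a1 (chr16:57754738-57754887, minus strand): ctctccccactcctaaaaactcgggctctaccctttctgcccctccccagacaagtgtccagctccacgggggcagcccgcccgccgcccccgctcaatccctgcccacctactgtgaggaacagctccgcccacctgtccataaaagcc
Fbln5 (chr12:101819120-101819269, minus strand): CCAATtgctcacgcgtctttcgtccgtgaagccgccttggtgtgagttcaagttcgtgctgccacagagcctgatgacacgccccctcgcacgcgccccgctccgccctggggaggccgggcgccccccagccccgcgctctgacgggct
Col6a3 (chr1:90843972-90844121, minus strand): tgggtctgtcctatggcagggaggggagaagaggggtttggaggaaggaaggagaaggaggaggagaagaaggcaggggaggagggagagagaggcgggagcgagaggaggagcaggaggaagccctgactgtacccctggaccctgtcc
Fbln2 (chr6:91212614-91212763, plus strand): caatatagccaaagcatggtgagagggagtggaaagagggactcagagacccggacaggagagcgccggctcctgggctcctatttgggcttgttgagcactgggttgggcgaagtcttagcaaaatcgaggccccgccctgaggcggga
Capitals mark matches, on either strand, to the TATA box letters TATAAA, the CCAAT box letters CCAAT, the AP-1 letters TGANTCA or the TEAD letters GGAATG, none of which overlap here. Positions are counted from the RefSeq start, which need not be the start of the gene coordinates given above, and the TATAAA of Ogn lies upstream of the printed stretch. In the 250 bases before the start, TATAAA was found in 5 of the 23 matched genes and in 12.4% of 32851 promoters, CCAAT in 5 genes and 33.8%, TGANTCA in 1 gene (Col6a1) and 6.75%, and GGAATG in 3 genes (Col3a1, Ogn and Mfap2) and 12.6%. A match describes letters in this window and is not a binding site.

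The further genes of the pathway were read from lists that hold none of the 37. For comparison with the counts of each list, 5.28% of all genes tested were 2-fold higher in stromal cells and 13.4% lower. In collagen modification and secretion 3 of 21 tested genes were 2-fold higher and 1 lower, with a median ratio of 1.16. The prolyl 4-hydroxylase subunits P4ha2 and P4ha1, which stabilize the collagen triple helix, were higher, at ratios of 4.75 (25.7 to 122 CPM) and 2.34 (95.6 to 224 CPM), and the rarer subunit P4ha3 was lower, at 0.394. The collagen chaperone Serpinh1 stood at 819 and 912 CPM, a ratio of 1.11.

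Other interstitial matrix had 4 of 24 tested genes higher and 10 lower, with a median ratio of 0.766. Its named ends were Col5a3 (a type V collagen chain) at 4.69 and Emilin2 at 3.68, and Fbn2, the fibrillin of growing tissue, at 0.0525 and Fbln7 at 0.0406. Of the collagen and fibronectin receptors 1 of 10 was higher and 1 lower: Itga5, the α chain of the main fibronectin receptor, at 2.21 and Itga8, the α chain of another receptor for fibronectin and related ligands, from 29.6 to 4.44 CPM. Fn1 and its receptor chain Itga5 were both higher, and a fibrillin and a fibulin outside the 37 genes were lower. For the receptors, 1 of 10 in each direction lay near the shares of all genes. The other 8 tested receptor genes lay within 2-fold, with Itgb1 at 0.949.

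Among these 4 lists collagen breakdown and uptake had the median farthest from that of all genes, with 5 of 9 higher, 1 lower and a median ratio of 3.69. Mmp3 (stromelysin 1) went from 309 to 11559 CPM, a ratio of 37.4 (36.3 to 38.6). Mmp13, an interstitial collagenase, went from 11 to 292 UMIs, a ratio of 38.1 (21.0 to 77.3). Fap, a fibroblast surface protease, was lower, at 0.391.

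The stromal sub-clusters, made for each library without the 37 genes, showed how far the levels differed between cells. In control the sub-cluster of 71 cells led by Tnfsf9, Igfbp3, Srpx2, Nkd2 and Cadps gave the genes 3.10% of its UMIs, the highest share, with Col1a1 at 3517 CPM against 995 to 1512 CPM in the other control sub-clusters of 50 or more cells. Dcn reached 992 CPM there, and ranged from 2495 to 6639 CPM over the 5 IL-1β sub-clusters, so that the lowest IL-1β sub-cluster lay above the highest control one. Eln ran from 70.0 to 378 CPM in control sub-clusters other than 4 macrophage-led cells at 0, and from 8.10 to 66.2 CPM in IL-1β sub-clusters. For Eln the nearest control and IL-1β levels, 70.0 and 66.2 CPM, lay close together. How many other genes have sub-cluster levels apart between the libraries is not given here, and sub-clusters of a library are not replicates.

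The IL-1β sub-cluster of 217 cells with 13.5% mitochondrial UMIs had the highest Col1a1 and Postn levels of the IL-1β stromal cells. Col1a1 stood at 2350 CPM in it and at 879 to 1161 CPM in the others, and Postn at 1136 CPM against 31.7 to 513 CPM. Col6a3, at 595 CPM, and Fbln2, at 433 CPM, were high there and about as high in 1 other IL-1β sub-cluster each. With these cells left out, 4 members were 2-fold higher and 10 lower, and the median log2 ratio of the 37 genes was −0.48 in place of −0.03. The median of all genes was then −0.37 in place of −0.33, so that the 37 genes stood below it and not above it. Without these cells Fbln2 and Col6a3 fell short of 2-fold, with log2 ratios of 0.72 and 0.86, Mfap4 no longer passed and Col6a2 did. The log2 ratios of Col1a1 and Col1a2 were then −0.37 and −0.19; the part of the mitochondrial share in these values was not tested.

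**Figure D2:**
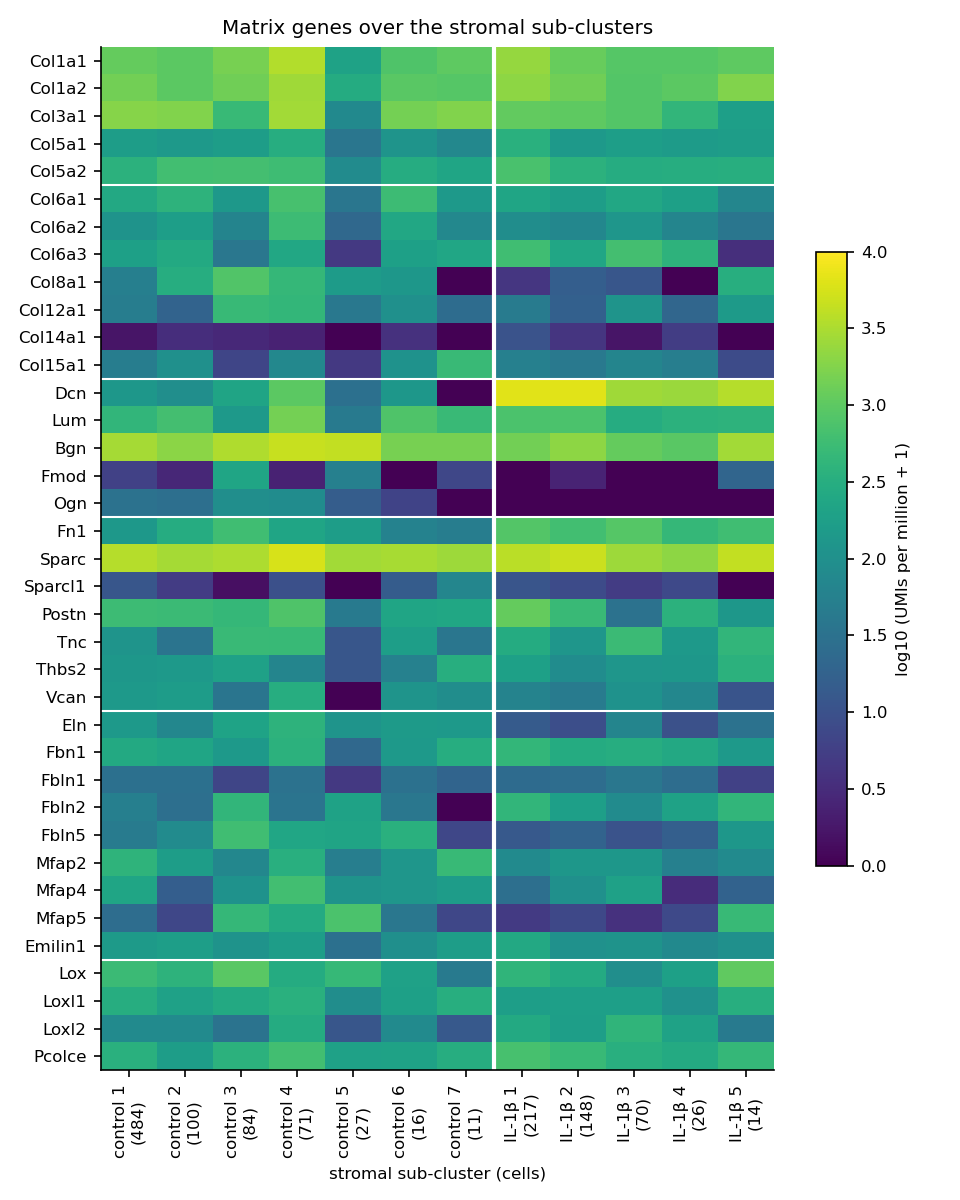
Heat map of log10 (CPM + 1) for the 37 genes (rows, with white lines between roles) over the stromal sub-clusters of at least 10 cells (columns, cells in brackets), with control left and IL-1β right of the white line. Dcn is bright across all 5 IL-1β columns and Ogn is dark in each of them, while Col8a1 and Fmod are brightest in control 3, Mfap5 in control 5, and all 3 of them, among IL-1β columns, in IL-1β 5.

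Clustering both libraries together left 1 stromal cluster with at least 10 cells of each, with Ctgf, Wisp2, Acta2 and Thbs1 among its leading genes. It held 80 control cells, 10.0% of the stromal cells, and 15 IL-1β cells, 3.16%, with median UMIs of 21037 and 27495. In control it contained 88.2% of the Fmod UMIs of stromal cells, 53.4% of Mfap5, 54.6% of Fbln5 and 49.6% of Col8a1, from 14.2% of all stromal UMIs.

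Within this shared cluster Mfap5 had 946 UMIs in control and 197 in IL-1β cells, or 491 and 402 CPM, a ratio of 0.820, whereas in the other stromal cells it went from 70.9 to 5.69 CPM, a ratio of 0.0802. Fbln2 and Fn1 showed the same contrast upward, with ratios of 0.889 and 0.850 in the shared cluster and 4.69 and 4.28 outside it. These 3 genes thus stood nearer their control level in the 15 cells than in the others. Further members went other ways: Col6a3 had a ratio of 0.125 inside (63 and 2 UMIs) and 2.06 outside, Lum 4.41 and 1.08, and Thbs2 2.17 and 0.975.

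Eln, Fbln5, Col8a1 and Fmod were lower in both places. Eln had ratios of 0.129 in the shared cluster and 0.119 outside, Fbln5 0.239 and 0.144, Col8a1 0.301 and 0.0740, and Fmod went from 465 to 14 UMIs inside. Ogn had 189 UMIs in the 80 control cells and 0 in the 15 IL-1β cells. Dcn was higher in both, at ratios of 30.7 and 23.8. Without the cells of the shared cluster 6 members were higher and 11 lower.

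**Figure D3:**
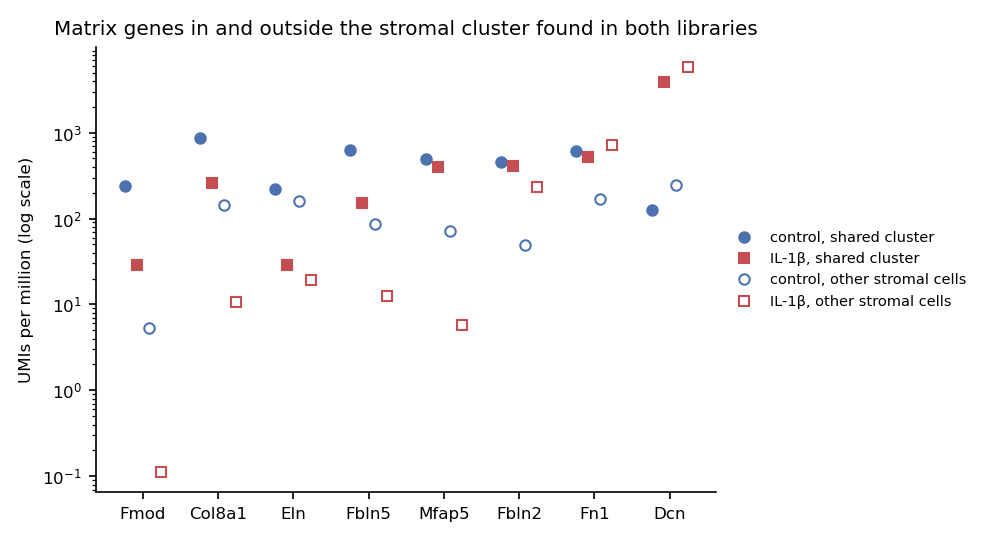
Level in CPM (log axis) of 8 genes in the shared cluster (filled symbols) and in the other stromal cells (open symbols) of control (circles) and IL-1β organoids (squares). Mfap5, Fbln2 and Fn1 lie close together in the filled symbols and apart in the open ones, while Eln and Dcn are apart in both; the lowest open square, Fmod, is 1 UMI.

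Markers of contractile cells were lower beside the 5 lower genes of elastic fibers and microfibrils. Of 7 such markers 6 were tested and all 6 were at least 2-fold lower in IL-1β stromal cells, their sum going from 681 to 60.3 CPM, with Actg2 and Des at 0. Of all genes tested 13.4% were 2-fold lower. Other marker lists were lower there too, with 6 of 8 alveolar type 1, 4 of 5 tested macrophage and 4 of 7 tested cell cycle markers. The 3 tested endothelial markers were all 2-fold higher. Leaving out the 11 control and 0 IL-1β cells with over 1% contractile UMIs, 6 members were higher and 10 lower. That limit removed few cells. The control sub-clusters highest in contractile markers, of 84 and 27 cells, had sums of 3148 and 5954 CPM and so averaged under it. Whether the counts of members depend on contractile cells was therefore not tested. Macrophage markers summed to 34.1 and 18.3 CPM and endothelial markers to 2.65 and 25.7 CPM in stromal cells, with Laptm5 and Ptprc at 0 in IL-1β. Fewer contractile cells and less of these RNAs per cell cannot be told apart in the summed counts. By sub-cluster, the highest contractile marker sum with IL-1β was 1236 CPM, in 14 cells, against 3148 and 5954 CPM in the 84 and 27 control cells.

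Shares of stromal cells with a UMI differed in the same direction as the levels for the genes given here. With every cell thinned to 4000 UMIs, Dcn was found in 18.8% of control and 93.7% of IL-1β stromal cells (33.6% and 97.1% before thinning). In epithelial cells it was found in 1.95% and 42.5% (8.10% and 76.0%). Fbln2 was found in 19.8% and 58.3% of stromal cells against 1.32% and 2.56% of epithelial cells, and Eln in 26.1% and 4.42% against 2.10% and 0.116%. The spread among control cells was wide, since the top 10% of cells held 89.7% of Dcn UMIs in control and 44.8% in IL-1β stromal cells.

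In epithelial cells most of the genes lay at a low, even share of the stromal level. Over the 8 stromal markers outside the list with at least 100 stromal UMIs, the epithelial level was 0.909% to 3.19% of the stromal level in control and 0.854% to 5.82% in IL-1β organoids. Of the matrix genes with as many UMIs, 22 of 36 fell within that range in control and 27 of 33 in IL-1β organoids. Clusters were called from these same markers, so their low epithelial share is partly set by that call. The marker Meox1, with 27 and 42 stromal UMIs, was left out by the UMI limit and stood at 47.4% and 57.2%. The upper IL-1β limit of 5.82% came from Thy1 alone, with 120 stromal and 23 epithelial UMIs (interval 3.56% to 9.15%). The next highest marker in IL-1β organoids was Twist2, at 2.96%. Lum, Bgn, Lox, Pcolce, Mfap5 and Fn1, at 3.10% to 5.37%, were inside the IL-1β range only because of Thy1. Col1a1 stood at 1.95% and 1.69%, Col3a1 at 2.50% and 2.43% and Dcn at 2.55% and 2.35%. Whether these levels are stromal background or epithelial expression was not tested.

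Between libraries, 4 of 35 tested members were at least 2-fold higher in IL-1β epithelial cells and 11 lower, where 8.47% and 6.11% of 13235 genes were. Of the 4 higher, Dcn (ratio 23.2), Fbln2 (2.25) and Loxl2 (2.08) lay at 2.17% to 2.63% of the stromal level, and their stromal ratios were 25.1, 2.26 and 2.52. The 11 lower were Fbln5, Col8a1, Fmod, Ogn, Vcan, Eln, Mfap2, Mfap4, Mfap5, Lox and Loxl1. All but Fbln5 lay at 1.72% to 4.49% of the stromal level in control, and all were below parity in stromal cells too. How much of their epithelial ratios is stromal background was not tested. Among genes with at least 100 stromal UMIs in the library, those above 5% of the stromal level were Fbln5, Col6a1, Sparc, Col6a2, Fn1 and Col12a1 in both libraries, Pcolce only in control and Col15a1 only in IL-1β. With fewer stromal UMIs, Col14a1 stood at 17.8% in control, and Fmod at 30.4% and Ogn at 10.1% in IL-1β, the last against the floor of 3 UMIs.

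**Figure D4:**
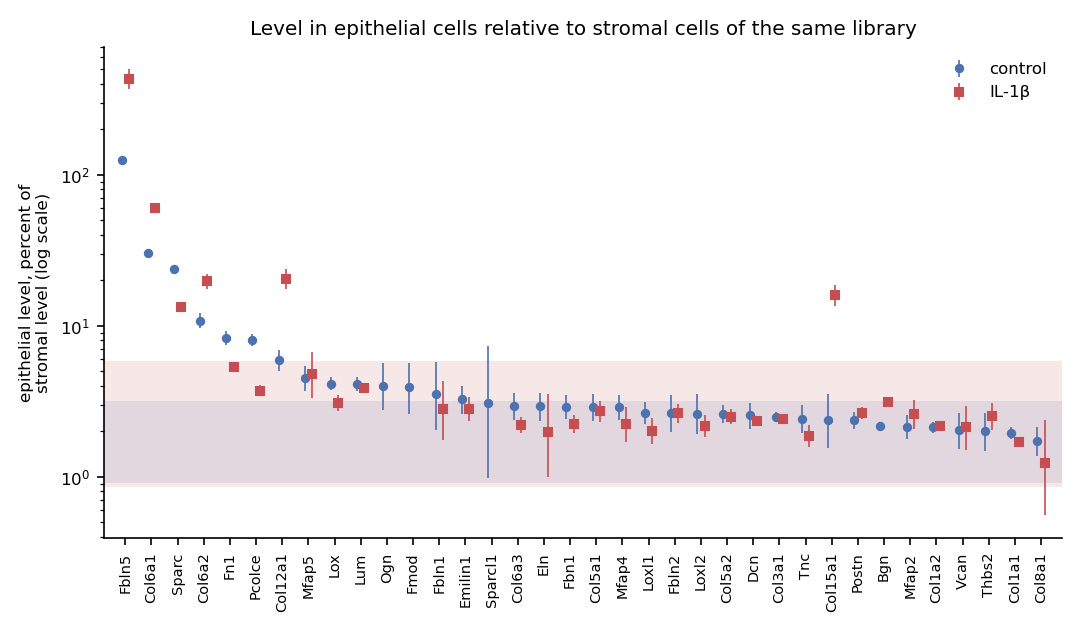
Level in epithelial cells as a percentage of the level in stromal cells of the same library (log axis), for genes with at least 100 stromal UMIs in that library, with 95% intervals of the counts. Shaded bands are the range over stromal markers that are not matrix genes (blue for control, red for IL-1β); Fbln5, at 126% and 429%, Col6a1, at 30.4% and 60.0%, and Sparc, at 23.9% and 13.4%, lie above both bands.

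Fbln5 and Sparc were concentrated in 1 epithelial sub-cluster of each library. In control this sub-cluster held 219 cells led by Igfbp2, Pmp22, Rtkn2, Clic5 and Akap5, and in IL-1β organoids 446 cells led by Akap5, Hopx, Rtkn2, Clic5 and Sema3e. Each had 8 of 8 markers of alveolar type 1 (AT1) cells at least 2-fold above the other epithelial cells and is called AT1-like. Fbln5 stood at 1075 CPM in AT1-like and 35.9 CPM in other epithelial cells of control organoids, and at 397 and 12.1 CPM in IL-1β organoids. AT1-like cells held 85.5% and 88.3% of the epithelial Fbln5 UMIs.

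Sparc stood at 3612 CPM in AT1-like and 332 CPM in other epithelial cells of control organoids, and at 1863 and 230 CPM in IL-1β organoids. Its AT1-like level in control was thus close to the 3642 CPM of the stromal cells. Between libraries both genes were lower in AT1-like cells with IL-1β, at ratios of 0.369 for Fbln5 and 0.516 for Sparc. The AT1 markers were lower there too, with a sum of 20454 CPM in control and 10967 CPM in IL-1β AT1-like cells, while 7 markers of damage-associated transient progenitors, cells between AT2 and AT1, summed to 1148 and 3254 CPM, with 3 and 6 of them at least 2-fold above the other epithelial cells. The part of these differences in the ratios was not tested. In stromal cells Fbln5 was lower as well (0.120), while Sparc was not (1.10).

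Pcolce, Lox and Fn1 were also higher in AT1-like than in other epithelial cells of control organoids, at 81.0 against 17.1 CPM, 61.6 against 14.3 CPM and 73.3 against 8.51 CPM. In IL-1β organoids Lox was not, at 10.4 and 9.62 CPM, while Pcolce stood at 38.3 and 14.2 CPM and Fn1 at 50.8 and 35.1 CPM. The Lox ratio of IL-1β over control was 0.169 (0.125 to 0.227) in AT1-like and 0.674 in other epithelial cells, against 0.592 in stromal cells. The Fn1 value in control rests on few cells, since 97.8% of its AT1-like UMIs came from the top 10% of cells.

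Col6a1 had the reverse pattern. It stood at 28.6 CPM in AT1-like and 105 CPM in other epithelial cells of control organoids, and at 57.8 and 127 CPM in IL-1β organoids. The low level was not particular to AT1-like cells with IL-1β, where a sub-cluster of 67 other epithelial cells stood at 56.4 CPM. With cells thinned to 4000 UMIs it was found in 31.2% and 38.1% of the other epithelial cells (64.1% and 67.7% before thinning), where Col1a1 was found in 9.48% and 9.22%. Over all epithelial cells it had a ratio of 1.23 (1.17 to 1.31), while Col6a2, at 17.3 and 16.1 CPM, had 0.933 (0.811 to 1.08).

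Col15a1 went from 26 to 236 UMIs in epithelial cells, or from 1.36 to 7.58 CPM, a ratio of 5.58 (3.71 to 8.72), and it is the 1 gene of the 4 higher in epithelial cells that was not 2-fold higher in stromal cells. Its highest level was 20.8 CPM, in the IL-1β sub-cluster of 605 cells led by BC030867, Trf, AU021092, Tmem213 and Inhbb. Fn1, at 75.3 CPM, and Col12a1, at 20.4 CPM, also had their highest IL-1β epithelial level there. With cells assigned by their own markers in place of clusters, the log2 ratio of Col15a1 was 1.16 in place of 2.48. Over all epithelial cells Fn1 went from 19.2 to 38.1 CPM, a ratio of 1.98 (1.76 to 2.24), with a log2 ratio of 0.22 when all barcodes were kept and 1.75 with each cell weighted the same, and Col12a1 stood at 9.10 and 9.26 CPM.

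**Figure D5:**
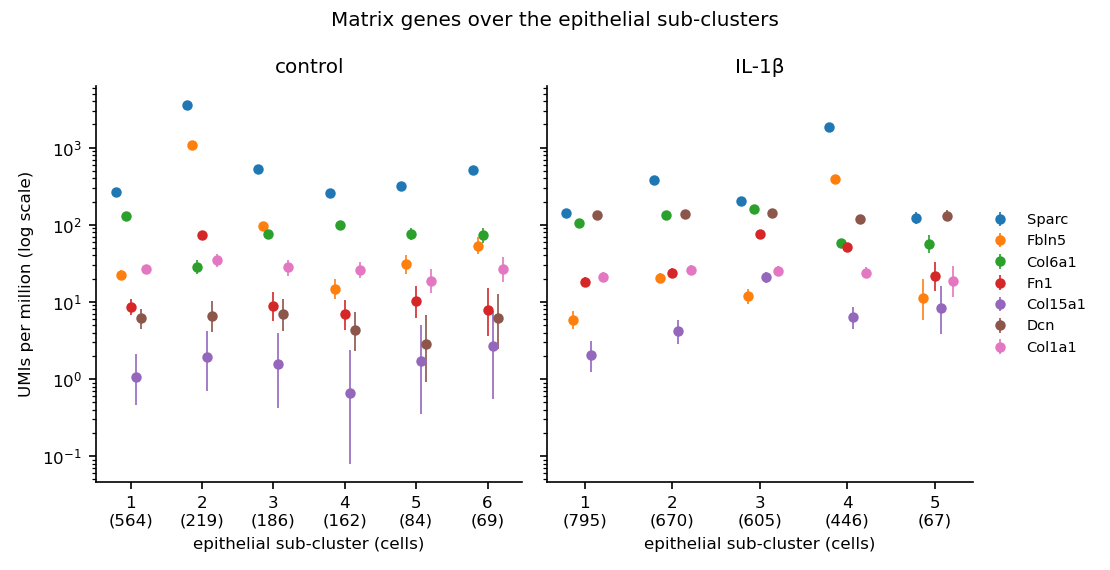
Level in CPM (log axis) of 7 genes over the epithelial sub-clusters of control (left, 6 sub-clusters) and IL-1β organoids (right, 5), with cells in brackets and 95% Poisson intervals. Sparc and Fbln5 peak in control 2 and IL-1β 4, the AT1-like sub-clusters, and Col6a1 is lowest in control 2; Col1a1 stays between 18.9 and 34.6 CPM in control.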

How the data were processed

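The 10x Genomics 3′ kit was used on cells from PBS and IL-1β cultures, 1 library per condition. The deposited values are raw UMI counts per gene and cell, which the authors made with Cell Ranger; the processing notes also name Scanpy 1.3.6 and the builds mm9 and GRCm38.

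Cells with over 500 and under 7000 genes and over 2000 UMIs were kept, after the study's methods. The scrublet rule of the study marked 3 of 5142 cells (0.0583%). Doublets may therefore remain, and how many the deposited cells hold was not tested. Cells were clustered with Leiden (scanpy 1.11.5, resolution 1) on both libraries with the 37 genes and the listed pathway genes left out, and clusters called stromal or epithelial from markers; sub-clusters used resolution 0.5 within each library and class. UMIs were summed per library and class and divided by the class total (CPM). A gene was tested with at least 20 UMIs over both sides, and called at a ratio of 2 between libraries or 10 between classes. Where a count was 0, a floor of 3 counts was used. Intervals are exact at 95% (Poisson for levels, conditional binomial for ratios, Clopper-Pearson for shares). UMIs remove amplification copies, and intervals and floors cover counting error only. The ratio step was run on simulated Poisson counts, the model the intervals assume. That run therefore does not bear on the spread between cells or cultures.

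The members, lists and markers were chosen with earlier results of these data known. Named in full were Col1a1, Col1a2 and Col3a1, the 6 genes with the highest and the 6 with the lowest stromal ratio by the interval limit nearest 1 (100 stromal UMIs or more), the 6 with the highest epithelial level relative to stromal in either library (100 epithelial UMIs or more), the 2 highest and 2 lowest called genes of each pathway list, and the 5 leading genes of clusters, of which 1 is not reported here. Coordinates are from GENCODE M21 on GRCm38; promoters are from RefSeq (GRCm38.p6). Alternatives covered scaling, minimum UMIs, fold, cell filters, doublets, clustering and left-out cells.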

Additional observations from a re-analysis of the deposited data

Results flagged for a closer look

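Of the matrix genes, 4 had ratios of IL-1β over control in opposite directions in stromal and epithelial cells, with both intervals clear of parity; with 1 library per condition the difference between the cell classes was not tested. Col6a1 had a ratio of 0.625 in stromal and 1.23 in epithelial cells. Col15a1 had 0.833 in stromal and 5.58 in epithelial cells. For Sparc the ratios were 1.10 in stromal and 0.616 in epithelial cells, and AT1-like cells, where Sparc is highest, were 17.1% of control and 17.3% of IL-1β epithelial cells but differed in their AT1 marker sum, 20454 against 10967 CPM. Pcolce had ratios of 1.47 in stromal and 0.679 in epithelial cells, with an epithelial level of 8.03% and 3.72% of the stromal one.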

How the results depend on the processing

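No paired analysis was possible because each condition is 1 library. The counts of members were recomputed under 20 other settings and 3 more chosen after seeing the data (23 for each count that uses stromal cells, 18 for the counts of epithelial cells alone), and 123 of 128 values stayed within 1.5 times the reported count. The exceptions follow from a stricter or looser limit. At a fold of 3, stromal cells had 3 higher members (reported 6), and epithelial cells 2 higher (reported 4) and 6 lower (reported 11). At a fold of 1.5, 16 members were lower in stromal cells (reported 10). With a minimum of 100 UMIs, 7 were lower in epithelial cells (reported 11). Among the 660 recomputed log2 ratios of named genes, no call past 2-fold turned into the opposite direction. Ratios under 2-fold could not count as turned, and some of them changed sign over the settings. In stromal cells these were Col1a1 (−0.37 to 0.34), Col1a2 (−0.19 to 0.36) and Col15a1 (−0.40 to 0.064). In epithelial cells they were Col1a2 (−0.27 to 0.082) and Col12a1 (−0.50 to 0.27). Median-of-ratios scaling moved the median log2 ratio of all genes in stromal cells from −0.33 to −0.0018. Without cells that carried 3 or more UMIs of the other class's markers, the log2 ratio of Fmod was −5.58 in place of −4.61, and Ogn, at 0 UMIs, had −5.59 in place of −7.12 against the floor. This setting left out 241 of 797 control and 216 of 475 IL-1β stromal cells, so epithelial RNA was common in the stromal class. The median stromal log2 ratio of the 37 genes was then 0.18 in place of −0.03. Without the shared cluster, Fbln2 had 2.23 in place of 1.17, Mfap5 −3.64 in place of −2.31 and Fmod −5.58. With each cell weighted the same, epithelial Ogn, which had 1 UMI with IL-1β, had −5.17 in place of −5.79. Clusterings at other resolutions, seeds or algorithms gave 6 higher and 10 lower members in stromal cells. The median log2 ratio of the 37 genes was −0.028 or −0.034 in them, against −0.028 as reported. They thus split the cells almost alike, and their values among the 128 are not separate checks. Without the 20 control and 26 IL-1β stromal cells led by epithelial or macrophage genes the counts were also 6 and 10.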

Other observations

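Members and listed genes that lie near each other on a chromosome, with unlisted genes not considered, had like ratios in some places and unlike ratios in others. On chromosome 13, Ecm2, Aspn and Ogn, which encode related leucine-rich proteins, were all lower in IL-1β stromal cells, at ratios of 0.0733 and 0.0939 for Ecm2 and Aspn and with 0 UMIs for Ogn. Prelp, at 0.152, and Fmod, at 0.0409, lie 115840 bases apart on chromosome 1 and were lower as well. Dcn and Lum lie 46985 bases apart on chromosome 10, with ratios of 25.1 and 1.21. On chromosome 9, Mmp13, Mmp3 and Mmp8 were higher together, at ratios of 38.1, 37.4 and 4.04. Col3a1 and Col5a2, which lie 24615 bases apart on chromosome 1, had ratios of 0.569 and 0.981.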
